A study of Mus musculus with 6 samples.

Results

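Interferon-stimulated genes are the genes a cell switches on when an interferon binds its surface. A set of 40 of them, given by symbol, was read in lymphocytes of the mouse mammary gland. All 40 symbols were found, each under 1 identifier, among the 55450 gene identifiers of the count table, and all 40 passed the filter on low counts. They were sorted by role into 26 antiviral effectors and regulators, 6 nucleic acid sensors, 3 STAT and IRF factors and 5 interferon-gamma GTPases. Bulk RNA was sequenced from lymphocytes that had been sorted out of mammary glands of pregnant mice late in pregnancy (E18.5). There were 3 libraries of CD8 beta+ T cells and 3 of NK1.1+ cells called double negative (DN), which the labels describe both as lymphocytes and as T cells. The study's question was whether unconventional lymphocytes inside the mammary epithelium steer how epithelial and basal cells differentiate. No genetic change, infection or treatment is named for either group, and strain and age are not given. Which markers the DN cells lack is not named. Nor is it stated that the 3 libraries of a group are from different mice, so the p-values reflect only the variation among these libraries, and that may be technical.

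Type I interferons bind a receptor made of IFNAR1 and IFNAR2, and the kinases JAK1 and TYK2 then activate STAT factors, among them STAT2. These join IRF9 in a complex that binds GAAA repeats in the promoters of target genes. Interferon-gamma, a product of activated T cells and natural killer (NK) cells, acts through IFNGR1, IFNGR2, JAK1 and JAK2 on pairs of STAT proteins, which bind a different, palindromic site. Resting lymphocytes keep a low level of many target genes, and infection or added interferon raises it.

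Library totals ran from 7961360 to 14367299 counts, so that a single count was worth 0.0721 to 0.13 CPM (counts scaled to library size), the unit of all levels below. Mitochondrial transcripts took 7.28% to 10.5% of the counts. The sort genes followed the labels. Cd8b1, for the CD8 beta chain, was at 947 ± 57.8 CPM in CD8 beta+ and at 2.56 ± 1.58 CPM in DN NK1.1+ libraries (mean ± SD, n = 3 each, as in all later pairs of values). Klrb1c, for NK1.1, was at 37.1 ± 5.66 and 638 ± 21.1 CPM, and Cd8a, for the CD8 alpha chain, was at 909 ± 85.4 and 162 ± 11.7 CPM. In bulk samples, fewer cells of a type and less RNA per cell cannot be told apart.

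Of the 40 interferon-stimulated genes, 22 were lower in DN NK1.1+ than in CD8 beta+ libraries, none was higher and 18 did not pass the test. Genes were called at an adjusted p under 0.05 in the quasi-likelihood test of edgeR, corrected by Benjamini-Hochberg over all 13171 genes tested. Across all genes it called 5.99% lower, 7.84% higher and 13.8% in either direction, against 55% of the 40 genes in the lower direction. At an unadjusted p under 0.05, 29 of the 40 were lower and 0 higher. DESeq2 called 25 lower and 0 higher, and limma-voom called 20 lower and 0 higher.

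The summed level of the 40 genes was 3061, 3058 and 3267 CPM in CD8 beta+ libraries 1, 2 and 3, and 2183, 2128 and 2025 CPM in DN NK1.1+ libraries 1, 2 and 3. The lowest CD8 beta+ sum therefore lay well above the highest DN NK1.1+ sum. The median log2 fold change (DN NK1.1+ over CD8 beta+) was −0.69, where the median over all tested genes was −0.003. It was below 0 in 37 of the 40 genes and above 0 in Isg15, Eif2ak2 and Ifi44, the last of which changed sign with the processing. All 3 DN NK1.1+ values lay below all 3 CD8 beta+ values in 31 genes, an order found in 14.6% of all tested genes. They lay above in 2 genes, Isg15 and Eif2ak2, an order found in 16.0% of all tested genes. A decrease of at least 2-fold was fitted in 12 genes and an increase of that size in 0. Over all tested genes these counts were 777 and 1059.

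**Figure D1:**
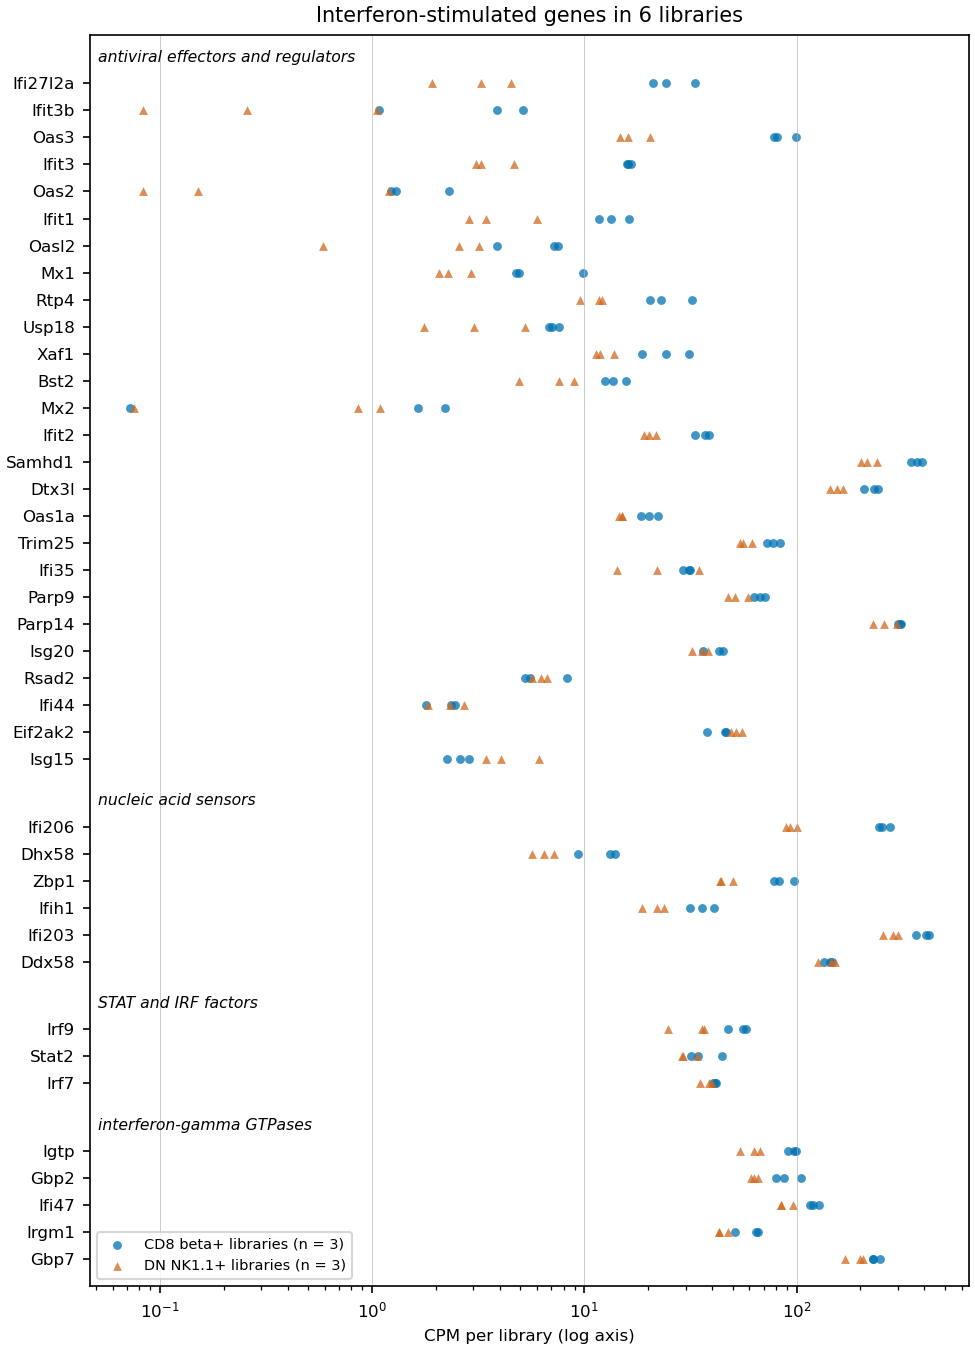
Level of each of the 40 genes in each library, in CPM on a log axis, with CD8 beta+ libraries as circles and DN NK1.1+ libraries as triangles (n = 3 each). Rows are grouped by role and ordered by fold change, and the triangles lie to the left of all circles in 31 rows and to the right of them in 2, Eif2ak2 and Isg15.

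Each role held genes that fell. Of the 26 antiviral effectors and regulators, 12 were lower, and their median log2 fold change was −0.88. Their sums were 1433, 1428 and 1526 CPM in CD8 beta+ and 1012, 968 and 936 CPM in DN NK1.1+ libraries. Of the 6 sensors, 5 were lower, with a median of −0.83. Of the 3 STAT and IRF factors, 1 was lower (median −0.26, and −0.137 without CD8 beta+ replicate 3), and of the 5 GTPases, 4 were lower (median −0.45). The widest range of fold changes was among the effectors, from −3.0 to 0.82 on the log2 scale, while the GTPases spanned only −0.64 to −0.30.

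**Figure D2:**
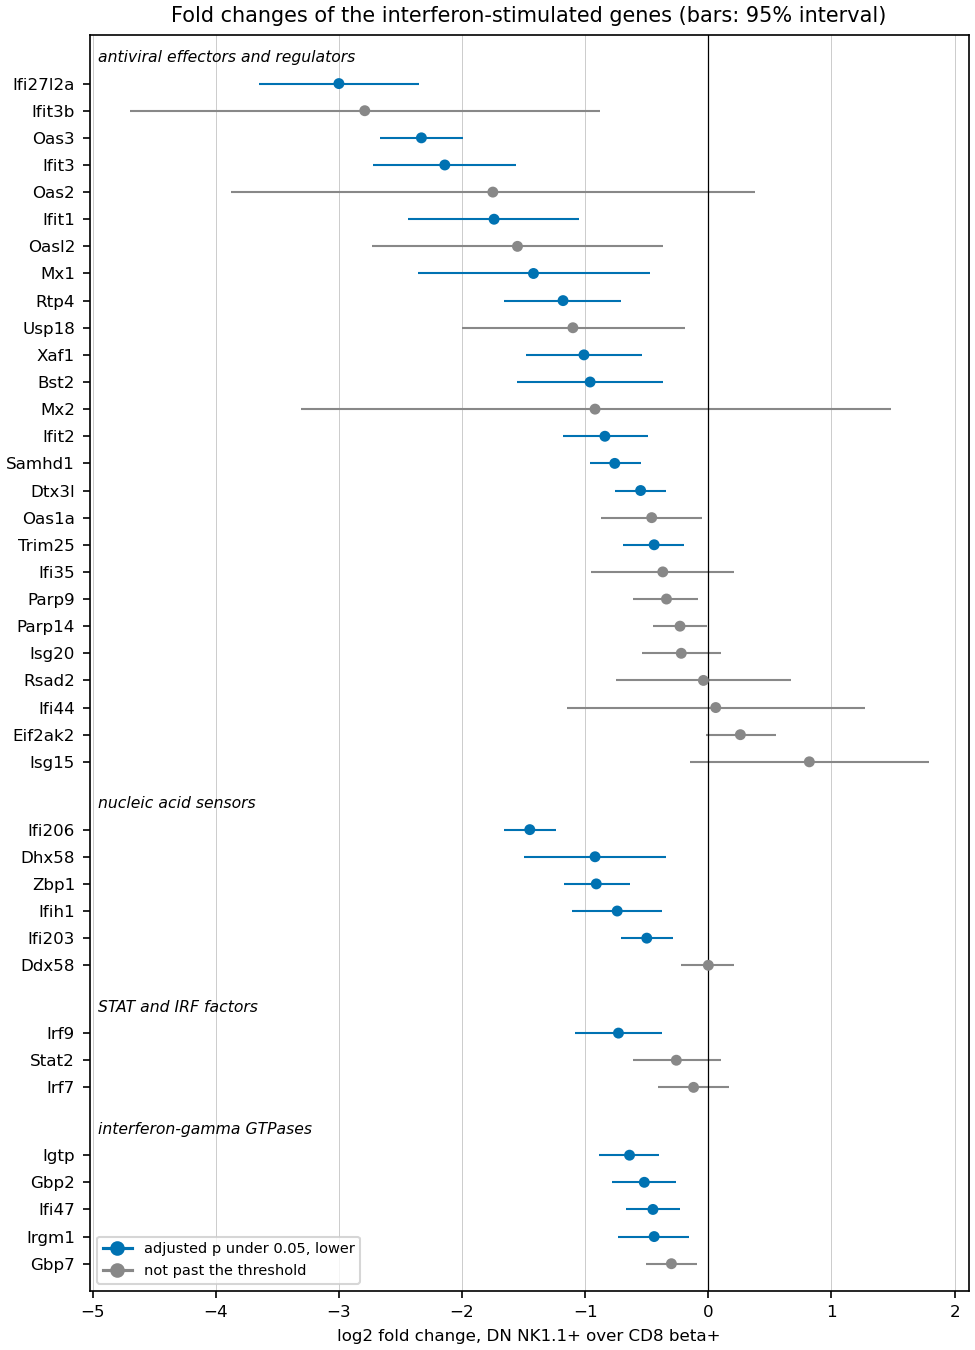
Fitted log2 fold change of each gene, DN NK1.1+ over CD8 beta+, with its 95% interval as a bar (3 libraries per group). The 22 coloured genes passed the test and all lie left of 0, and the 18 grey genes did not pass it.

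Promoter sequence was looked up because the complex that holds STAT2 and IRF9 reads GAAA repeats. The RefSeq table of promoters on GRCm38.p6 covers 250 bases before to 50 bases after each start, and 30 of the 40 genes matched by symbol. Those not in it were Usp18, Mx1, Mx2, Oas2, Rtp4, Ifi27l2a, Parp9, Parp14, Dhx58 and Zbp1. GAAA followed by any 2 bases and GAAA again, searched on both strands and called the spaced repeat here, was found in 18 of the 30 promoters (60.0%) and in 3.99% of the 27025 genes of the table. The share was 58.8% (10 of 17) for genes that fell and 61.5% (8 of 13) for genes that did not pass the test. A match is a string of letters and no evidence of a bound site. Stretches around the matches are shown for the 6 genes with the largest decrease among those that passed the test and hold the motif before the start. Ifih1, whose decrease was larger than that of Igtp, has its match after the start, in transcribed sequence, and is not shown. Isg15, which did not fall, was added after its values were seen. Sequences run 5′ to 3′ on the strand of the gene. Capitals mark the matches, which read TTTC, any 2 bases and TTTC where the motif is on the other strand, and matches that overlap form 1 run.

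Oas3 (chr5:120777685-120777774, minus strand, 1 match): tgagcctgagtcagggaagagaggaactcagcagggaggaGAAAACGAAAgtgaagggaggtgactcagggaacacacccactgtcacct
Ifit3 (chr19:34583333-34583456, plus strand, 2 matches): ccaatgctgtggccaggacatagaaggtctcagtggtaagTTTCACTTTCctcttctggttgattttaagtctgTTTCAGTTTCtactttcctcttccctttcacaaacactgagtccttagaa
Ifit1 (chr19:34640745-34640853, plus strand, 2 matches): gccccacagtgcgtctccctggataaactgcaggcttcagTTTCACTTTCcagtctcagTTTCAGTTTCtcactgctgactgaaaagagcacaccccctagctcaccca
Ifi206 (chr1:173491319-173491398, minus strand, 1 match): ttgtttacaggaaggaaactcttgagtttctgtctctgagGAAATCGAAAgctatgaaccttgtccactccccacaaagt
Bst2 (chr8:71537547-71537642, minus strand, 2 matches): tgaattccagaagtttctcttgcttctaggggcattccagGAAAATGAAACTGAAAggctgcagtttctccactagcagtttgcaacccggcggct
Igtp (chr11:58199482-58199555, plus strand, 1 match): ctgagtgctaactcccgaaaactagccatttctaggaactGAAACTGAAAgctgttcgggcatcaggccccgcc
Isg15 (chr4:156200835-156200936, minus strand, 3 matches): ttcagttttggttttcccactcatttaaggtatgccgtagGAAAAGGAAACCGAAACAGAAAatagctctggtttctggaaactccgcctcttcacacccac

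These stretches lie within 196 bases before the start that RefSeq gives. By role, 4 of 4 sensor promoters, 4 of 5 GTPase promoters, 9 of 18 effector promoters and 1 of 3 STAT and IRF promoters held the spaced repeat. A longer form, the spaced repeat followed by CT, every match of which also counts for the shorter one, was found in 9 of 30 promoters (30%) against 0.303% of all genes of the table. The palindrome TTCNNNGAA, the site type of STAT pairs, was also found in 9 of 30 (30%), against 9.55% of all. In Bst2 it overlaps the run in capitals by its last bases.

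Among the antiviral effectors the largest decrease was in Ifi27l2a, which encodes a short hydrophobic protein of the ISG12 family. The gene is on chromosome 12 from 103442167 to 103443680 of mm10, the build of all gene positions here. Its levels were 33.2, 24.4 and 21.1 CPM in CD8 beta+ libraries and 3.27, 1.92 and 4.54 CPM in DN NK1.1+ libraries. The groups lay far apart, and the mean was 8.01-fold lower in DN NK1.1+ libraries (a log2 fold change of −3.0 with SE 0.304, adjusted p = 6.34e-06).

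The oligoadenylate synthetases make short adenylate chains that activate RNase L, an enzyme that cuts RNA. Oas3 (chromosome 5, 120753098 to 120777661) measured 77.9, 80.8 and 99.9 CPM in CD8 beta+ libraries and 14.8, 16.1 and 20.5 CPM in DN NK1.1+ libraries. Its groups were likewise far apart, at a 5.02-fold difference in means (a log2 fold change of −2.33 with SE 0.159, adjusted p = 7.75e-08). The other family members did not pass the test. Oas1a was at 20.4 ± 1.85 and 14.8 ± 0.301 CPM, with groups that did not overlap (adjusted p = 0.144). It shares 57.57% of its 50-base stretches with Oas1g, so its reads could be split between them, but the sum of both genes was 20.4 ± 1.85 and 14.9 ± 0.229 CPM. Oas2 was at 1.61 ± 0.603 and 0.480 ± 0.629 CPM (adjusted p = 0.31), and 2 of its 3 DN NK1.1+ values, 0.0836 and 0.151 CPM, were worth 3 counts or fewer. Oasl2, a synthetase-like gene, was at 6.21 ± 2.01 and 2.11 ± 1.36 CPM (log2 fold change −1.55, adjusted p = 0.0834). Without CD8 beta+ replicate 3 its adjusted p was 0.0498.

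The IFIT proteins bind RNA and block the translation of foreign transcripts. Ifit3 (chromosome 19, 34583531 to 34588731) was at 16.1, 15.9 and 16.6 CPM in CD8 beta+ libraries and at 4.65, 3.09 and 3.25 CPM in DN NK1.1+ libraries. The 3 CD8 beta+ values were nearly equal, and the decrease was 2.14 on the log2 scale (fold change −2.14, SE 0.273, adjusted p = 5.33e-05). Ifit1 measured 16.2, 13.3 and 11.7 CPM against 6.02, 3.43 and 2.87 CPM (a log2 fold change of −1.74 with SE 0.325, adjusted p = 0.00164). In Ifit2 the decrease was smaller, from 36.2 ± 2.85 to 20.3 ± 1.29 CPM (a log2 fold change of −0.84 with SE 0.161, adjusted p = 0.00215). All 3 had groups that did not overlap.

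Ifit3b is a close copy of Ifit3 in the same cluster, and 51.24% of the 50-base stretches of Ifit3 also occur in Ifit3b. How reads were divided between the copies is not given in the sources used here. Ifit3b alone was at 3.89, 1.08 and 5.14 CPM in CD8 beta+ libraries and at 0.258, 0.0836 and 1.06 CPM in DN NK1.1+ libraries. Its log2 fold change of −2.79 missed the threshold (adjusted p = 0.0514), and it was −4.21 with an adjusted p of 0.0174 without DN NK1.1+ replicate 3. Summed, the copies measured 20.0, 16.9 and 21.8 CPM against 4.90, 3.18 and 4.31 CPM, which is 4.74-fold lower in DN NK1.1+ libraries whichever copy the reads came from.

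Mx1, an antiviral dynamin-like GTPase, was at 9.86, 4.76 and 4.93 CPM in CD8 beta+ and 2.06, 2.93 and 2.27 CPM in DN NK1.1+ libraries. CD8 beta+ replicate 1 stood above the other 5 values. The log2 fold change of −1.42 passed the test (SE 0.442, adjusted p = 0.0454), but without that library it was −1.01 with an adjusted p of 0.299. The call was also lost without CD8 beta+ replicate 2 (0.0608) and without DN NK1.1+ replicate 1 (0.128), 2 (0.0733) or 3 (0.0969). Mx2, annotated as a polymorphic pseudogene in this build, was at 1.31 ± 1.11 and 0.674 ± 0.531 CPM and did not pass (adjusted p = 0.69).

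Rtp4, whose product handles receptor trafficking and is strongly inducible by interferon, fell from 25.3 ± 6.17 to 11.1 ± 1.4 CPM (a log2 fold change of −1.18 with SE 0.222, adjusted p = 0.00173). Xaf1, for a protein that counters the apoptosis inhibitor XIAP, measured 18.8, 31.0 and 24.3 CPM against 11.3, 11.8 and 13.8 CPM. That decrease (a log2 fold change of −1.01 with SE 0.220, adjusted p = 0.00546) missed the threshold without CD8 beta+ replicate 2, at an adjusted p of 0.0517. Bst2, for the tetherin that holds budding virus at the cell surface, measured 15.8, 12.5 and 13.6 CPM against 7.57, 4.94 and 8.93 CPM. Its groups did not overlap (a log2 fold change of −0.96 with SE 0.274, adjusted p = 0.0284). The call was lost without CD8 beta+ replicate 1 (adjusted p = 0.135) or 2 (0.0638) and without DN NK1.1+ replicate 1 (0.0668) or 2 (0.117).

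Samhd1 and Dtx3l fell by less but from high levels, at the 92.8th and the 92.7th percentile of tested genes per exon length in CD8 beta+ libraries. Samhd1, which breaks down the nucleotides that viruses need for DNA synthesis, measured 348, 369 and 389.7 CPM in CD8 beta+ and 215, 239.7 and 200.3 CPM in DN NK1.1+ libraries. The log2 fold change was −0.76 (SE 0.0978, adjusted p = 6.34e-05), with no overlap of the groups. Dtx3l, a ubiquitin ligase that works in a complex with PARP9, fell from 227 ± 16.1 to 155 ± 11.0 CPM (a log2 fold change of −0.55 with SE 0.0977, adjusted p = 0.00108). Its partner Parp9, which starts beside it on the opposite strand, was at 66.9 ± 3.97 and 52.7 ± 5.64 CPM and did not pass (log2 fold change −0.34, adjusted p = 0.0845). The genes share 458 exonic bases, and without strand, reads from that stretch cannot be assigned. Their neighbour Parp14, for a mono-ADP-ribosyltransferase, was at 306 ± 5.96 and 261 ± 33.8 CPM (adjusted p = 0.183). The 3 genes lie between 35832874 and 35972605 on chromosome 16.

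Trim25, a ubiquitin ligase that activates the RNA sensor RIG-I, fell from 77.8 ± 5.37 to 57.2 ± 3.79 CPM (a log2 fold change of −0.44 with SE 0.115, adjusted p = 0.016). Leaving out CD8 beta+ replicate 2 gave an adjusted p of 0.087, and leaving out DN NK1.1+ replicate 2 gave 0.0633, so that the call was lost. The remaining effectors did not pass the test.

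Isg15, for a small ubiquitin-like protein that is attached to other proteins, was low in both groups: 2.85, 2.60 and 2.26 CPM in CD8 beta+ and 4.04, 3.43 and 6.13 CPM in DN NK1.1+ libraries. It was the gene with the highest fold change of the 40, at 0.82 on the log2 scale, with a 95% interval from −0.15 to 1.79 (adjusted p = 0.297). Usp18, the protease that removes ISG15 from proteins and dampens the type I receptor, was at 7.15 ± 0.397 and 3.34 ± 1.77 CPM. Its log2 fold change of −1.10 did not pass (adjusted p = 0.111), although the groups did not overlap. Without DN NK1.1+ replicate 1, the highest of its group at 5.25 CPM, it was −1.57 with an adjusted p of 0.0407. The modifier and the protease that removes it thus lay on opposite sides of 0, with neither called.

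Rsad2 (viperin, an enzyme that makes a chain-terminating nucleotide) was at 6.39 ± 1.68 and 6.23 ± 0.514 CPM, and Ifi44 was at 2.21 ± 0.357 and 2.30 ± 0.442 CPM. Both had an adjusted p of 0.966, with intervals of −0.75 to 0.67 and −1.15 to 1.27 on the log2 scale, so that changes of 2-fold in either direction in Ifi44 were not resolved at these counts. Isg20, an RNA exonuclease, was at 41.4 ± 4.57 and 35.5 ± 3.05 CPM (interval −0.54 to 0.10). Eif2ak2, the RNA-activated kinase PKR that halts translation, was at 43.4 ± 4.70 and 52.2 ± 3.38 CPM, higher in each DN NK1.1+ library than in any CD8 beta+ library, and did not pass (log2 fold change 0.26, adjusted p = 0.252). Ifi35 was at 30.7 ± 1.16 and 23.7 ± 10.4 CPM. The wide DN NK1.1+ spread came from replicate 3 at 34.9 CPM, and without it the log2 fold change of Ifi35 went from −0.37 to −0.76 and passed (adjusted p = 0.0324).

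The 6 nucleic acid sensors among the 40 fell with 1 exception, Ddx58. Sensors outside the 40 are given with the other genes of the pathway below. The largest decrease was in Ifi206, a member of the PYHIN family of DNA-binding proteins, at 277, 244 and 254 CPM in CD8 beta+ and 93.3, 100.5 and 89.6 CPM in DN NK1.1+ libraries (a log2 fold change of −1.45 with SE 0.0970, adjusted p = 6.04e-08). Of its 50-base stretches, 25.64% also occur in other genes, and 11.13% occur in Ifi208 of the same cluster, so its share of reads is uncertain. Ifi203, another PYHIN gene and the one with the most counts of the 40, was at 365, 419.8 and 407 CPM against 301, 285 and 255 CPM. Its decrease was modest but clear of the spread (a log2 fold change of −0.50 with SE 0.0984, adjusted p = 0.00254). Other genes hold 12.35% of the 50-base stretches of Ifi203. Zbp1, a sensor of left-handed nucleic acid that can start necroptosis, measured 82.5, 78.5 and 97.5 CPM against 43.5, 50.3 and 44.0 CPM. The groups were apart, with a log2 fold change of −0.91 (SE 0.125, adjusted p = 1.16e-04).

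The 3 RIG-I-like receptors, which detect foreign RNA in the cytoplasm, differed in their values. Ddx58, which encodes RIG-I itself, was at 147, 134 and 143 CPM in CD8 beta+ libraries and 145, 152 and 126 CPM in DN NK1.1+ libraries. These values overlap completely, and the 95% interval of the log2 fold change, −0.22 to 0.21, leaves room only for small differences (adjusted p = 0.99). Ifih1, for MDA5, measured 31.5, 35.8 and 40.8 CPM against 23.8, 22.0 and 18.8 CPM and fell (a log2 fold change of −0.74 with SE 0.171, adjusted p = 0.00795). Dhx58, for LGP2, measured 9.34, 14 and 13.2 CPM against 5.68, 6.44 and 7.19 CPM, again with no overlap (a log2 fold change of −0.92 with SE 0.274, adjusted p = 0.0354). The Dhx58 call was lost without CD8 beta+ replicate 2 (adjusted p = 0.168) or 3 (0.0812) and without DN NK1.1+ replicate 1 (0.116), 2 (0.0943) or 3 (0.051). Whether the change in Ddx58 differs from that in Ifih1 was not tested.

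Of the transcription factors, Irf9 was the one that fell. It supplies the part of its complex with STAT2 that binds the GAAA repeats. Its levels were 58.0, 47.7 and 56.2 CPM in CD8 beta+ and 36.0, 24.8 and 36.7 CPM in DN NK1.1+ libraries, without overlap (a log2 fold change of −0.73 with SE 0.165, adjusted p = 0.00711). Irf9 shares 123 exonic bases with Rnf31 on the same strand, out of 5386. Stat2, its partner, was at 36.8 ± 6.70 and 30.7 ± 2.86 CPM (interval −0.61 to 0.10, adjusted p = 0.385). Irf7, which drives interferon gene transcription, was at 41.1, 41.7 and 40.5 CPM against 35.1, 40.1 and 38.6 CPM. These values lay close together in all 6 libraries, although the groups did not overlap, and Irf7 did not pass (log2 fold change −0.12, interval −0.41 to 0.17, adjusted p = 0.672).

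The interferon-gamma GTPases attack the membranes around intracellular parasites and bacteria. Igtp, an immunity-related GTPase, was at 91.5, 99.4 and 97.4 CPM in CD8 beta+ and at 62.9, 54.3 and 67.6 CPM in DN NK1.1+ libraries (a log2 fold change of −0.64 with SE 0.114, adjusted p = 0.00112). It shares 162 of its 2022 exonic bases with Irgm2 on the same strand, a gene at 35.8 ± 1.56 and 36.5 ± 7.14 CPM that did not pass. Gbp2, a guanylate-binding protein, fell from 90.6 ± 12.8 to 63.2 ± 2.52 CPM (a log2 fold change of −0.52 with SE 0.120, adjusted p = 0.00829). Ifi47 fell from 121 ± 6.28 to 88.5 ± 6.98 CPM (a log2 fold change of −0.45 with SE 0.104, adjusted p = 0.00786). These 3 kept their calls when any single library was left out.

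Irgm1, a regulator of the other immunity-related GTPases, was at 60.7 ± 8.07 and 44.6 ± 2.54 CPM (a log2 fold change of −0.44 with SE 0.134, adjusted p = 0.0389). Its call was lost without CD8 beta+ replicate 1 (adjusted p = 0.146) or 3 (0.104) and without DN NK1.1+ replicate 1 (0.0667), 2 (0.118) or 3 (0.0872). Gbp7 was at 235 ± 11.0 and 191 ± 18.8 CPM and just missed the threshold (log2 fold change −0.30, adjusted p = 0.0602). All 5 GTPases had groups that did not overlap, and in 4 of them CD8 beta+ replicate 3 was the highest library of its group. Over all 40 genes that library was the highest CD8 beta+ value in 19, or 47.5%, against 37.9% over all tested genes.

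Levels can be set against each other once divided by exon length, as CPM per kb of exon. In CD8 beta+ libraries the highest of the 40 on this scale were Ifi206 at 84.6, Ifi203 at 59.2, Ifi27l2a at 56.7, Ifi47 at 49.0 and Igtp at 47.5 CPM per kb. Ifi206 stood at the 96.6th percentile of tested genes there and at the 90.4th in DN NK1.1+ libraries, with 30.9 CPM per kb. Ifi27l2a moved furthest among these 5, from the 94.9th to the 62.7th percentile (56.7 to 7.01 CPM per kb). At the other end, Ifi44, Mx2 and Oas2 were each near 0.36 CPM per kb in CD8 beta+ libraries, which puts them between the 8.12th and the 8.17th percentile, and Isg15 stood at the 44.8th. Within a group, the median coefficient of variation of the 40 genes was 11.3% among CD8 beta+ and 11.0% among DN NK1.1+ libraries. Over all tested genes it was 16.8% and 16.6%, without matching for level. Low genes among the 40 varied widely, such as Oas2 in DN NK1.1+ libraries (0.480 ± 0.629 CPM).

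**Figure D3:**
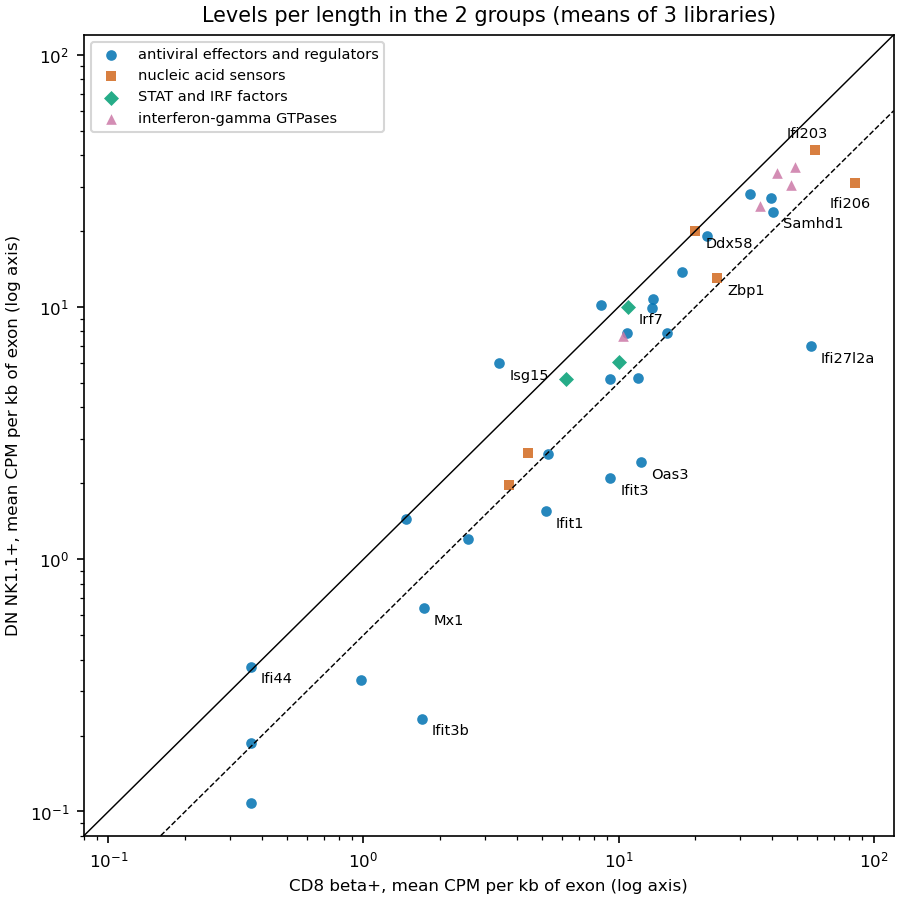
Mean CPM per kb of exon of each of the 40 genes in CD8 beta+ (x, log axis) and DN NK1.1+ libraries (y, log axis), means of 3 libraries, with symbols by role. The solid line marks equal levels and the dashed line a 2-fold lower level in DN NK1.1+ cells. Ifi27l2a (56.7 and 7.01) lies furthest below it among the abundant genes, and Ddx58 (20.0 and 20.0) lies on the solid line.

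Relatives of these genes, 39 found by symbol from the same families, were mostly lower where they passed the test. Of the 30 tested, 9 were lower and 1 was higher, so that 33.3% were called. Over all tested genes 13.8% were called, 5.99% lower and 7.84% higher. The median log2 fold change of the relatives was −0.20. It was 0.20 for the IFIT, OAS, IFITM and PYHIN relatives (9 of 17 above 0) and −0.34 for the GTPase relatives (4 of 13 above 0). Without CD8 beta+ replicate 3, 4 of the relatives were higher. The IFIT relative Ifit1bl1 fell from 46.1 ± 1.39 to 7.28 ± 1.15 CPM, more than any IFIT gene among the 40 that passed the test (a log2 fold change of −2.66 with SE 0.183, adjusted p = 8.38e-08). The IFIT cluster on chromosome 19 from 34550694 to 34650009 thus held 4 decreases among its 5 tested genes, and the fifth was Ifit3b.

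The PYHIN cluster on chromosome 1, from 173468485 to 174031810, held changes in both directions. Of the 11 genes listed from this stretch, all tested, 6 fell: Ifi206, Ifi203, Ifi214 (47.6 ± 1.30 to 10.2 ± 3.82 CPM, log2 fold change −2.22, adjusted p = 6.21e-06), Ifi213 (63.5 ± 6.58 to 16.5 ± 2.72 CPM, −1.95, 7.32e-07), Ifi208 (−1.54, 0.00145) and Ifi209 (−0.65, 0.00217). Ifi204 rose in the same cluster, at 0.649, 1.30 and 1.34 CPM in CD8 beta+ and 5.59, 6.19 and 5.75 CPM in DN NK1.1+ libraries (a log2 fold change of 2.38 with SE 0.487, adjusted p = 0.00347). It was low in absolute terms, and its groups were far apart. Ifi205 had 0 counts in CD8 beta+ libraries 1 and 2 and 2.16 CPM in library 3, against 3.61, 1.59 and 6.05 CPM, and did not pass (adjusted p = 0.351). Without CD8 beta+ replicate 3 it passed (adjusted p = 0.00117). Mndal, the most abundant PYHIN relative that did not pass, was at 169 ± 15.3 and 130.2 ± 21.3 CPM (adjusted p = 0.0556). Aim2, a PYHIN gene read here with the pathway genes, lies just before this stretch, from 173350879 to 173466040. It did not pass either (log2 fold change 0.17, adjusted p = 0.611).

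Among the GTPase relatives, Tgtp1 fell from 37.6 ± 10.0 to 11.6 ± 2.24 CPM (log2 fold change −1.70, adjusted p = 9.15e-05) and Gbp6 from 53.9 ± 4.65 to 25 ± 3.46 CPM (−1.11, 1.10e-04). Tgtp2, a close copy of Tgtp1, fell by 0.75 on the log2 scale (adjusted p = 0.00398). All 3 changes were larger in size than those of the 5 GTPases among the 40, a difference that was not tested. Gbp4 fell slightly (log2 fold change −0.34, adjusted p = 0.0408), a call lost when any single library other than CD8 beta+ replicate 3 was left out, with adjusted p from 0.08 to 0.193. Gvin1, a very large interferon-inducible GTPase, was abundant, with 731 ± 46.4 and 819.9 ± 68.0 CPM, and did not pass (adjusted p = 0.34). The immunity-related GTPases of chromosome 11 held 5 decreases among 7 tested genes, but they do not form a single cluster. Irgm1, Tgtp1, Tgtp2 and Ifi47, between 48861968 and 49096974, were all lower. Of Gm12250, Igtp and Irgm2, between 58187739 and 58222782, only Igtp was. The synthetases of chromosome 5 held 1 decrease among 7 tested genes. The IFITM genes, for membrane proteins that block virus entry, did not pass: Ifitm1 was at 5.48 ± 2.35 and 11.9 ± 4.85 CPM (adjusted p = 0.0639), and Ifitm10 at 22.2 ± 5.38 and 19.0 ± 2.88 CPM (adjusted p = 0.609). Without CD8 beta+ replicate 3, the highest of its group for both, Ifitm1 (adjusted p = 0.0262) and Ifitm3 (0.0282) passed.

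Of 43 other genes of the pathway, 34 were tested, 4 were higher and 2 lower (3 and 0 without CD8 beta+ replicate 1), and their median log2 fold change was 0.08. At 17.6%, the share called was nearer to the 13.8% of all genes than that of the 40 was. Of 9 interferon genes, 8 had 0 counts in all 6 libraries: Ifnb1, Ifna1, Ifna2, Ifna4, Ifnk, Ifne, Ifnl2 and Ifnl3. A count of 0 allows up to 3 counts, or 0.216 to 0.389 CPM in a library. Ifng, for interferon-gamma, was at 64.9, 70.7 and 94.1 CPM in CD8 beta+ and 48.4, 66.9 and 50.1 CPM in DN NK1.1+ libraries. Its groups overlapped, and it did not pass (log2 fold change −0.47, adjusted p = 0.071). Without DN NK1.1+ replicate 2 it was −0.64 with an adjusted p of 0.0256.

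None of the 8 receptor and kinase genes tested passed, 1 of them being higher and 1 lower at an unadjusted p under 0.05, and DESeq2 and limma-voom called 0 of them. Jak1 was at 1742 ± 49.5 and 1527 ± 102 CPM (interval −0.40 to 0.02), Ifngr1 at 631 ± 38.8 and 718 ± 18.9 CPM (−0.01 to 0.38), and Jak2 at 223 ± 15.4 and 221 ± 21.3 CPM (−0.23 to 0.20). Ifnar1 was at 141 ± 16.2 and 118 ± 6.96 CPM (interval −0.49 to −0.03, adjusted p = 0.144). These 4 intervals leave room only for changes of less than 1.5-fold in either direction. Those of Tyk2 (0.08 to 0.67) and of the low Ifngr2 (−1.08 to 1.26) were wider. Without replicate 3 of both groups, Ifngr1 passed at a log2 fold change of 0.25 (adjusted p = 0.023). Without DN NK1.1+ replicate 1, Tyk2 passed at a log2 fold change of 0.50 (adjusted p = 0.0372).

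Of 6 other STAT and IRF factors, 3 were higher and 3 did not pass. Irf8 and Irf5, factors of myeloid and lymphoid development and of inflammation, went against the direction of Irf9. Irf8 rose from 16.2 ± 2.42 to 145 ± 8.60 CPM (a log2 fold change of 3.16 with SE 0.133, adjusted p = 4.21e-10) and Irf5 from 4.53 ± 1.42 to 15.5 ± 3.71 CPM (1.79, SE 0.312, adjusted p = 9.61e-04). Stat3 rose by 0.42 on the log2 scale (adjusted p = 0.00619, and 0.0522 without CD8 beta+ replicate 2). Irf1, a direct target of interferon-gamma, was at 140.3 ± 13.2 and 148 ± 7.43 CPM and did not pass (interval −0.14 to 0.29, adjusted p = 0.705), nor did Irf2 and Irf3.

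Of 7 negative regulators, Ptpn1, a phosphatase of JAK2 and TYK2, rose from 104 ± 8.15 to 145 ± 16.3 CPM (log2 fold change 0.48, adjusted p = 0.00772, and 0.0621 without CD8 beta+ replicate 1). Ptpn6, for the phosphatase SHP-1, fell from 213 ± 20.1 to 168 ± 14.5 CPM (log2 fold change −0.35, adjusted p = 0.0354). That call was lost without CD8 beta+ replicate 1 (adjusted p = 0.189) or 2 (0.0887) and without DN NK1.1+ replicate 1 (0.117) or 3 (0.0852). Socs1 and Socs3, feedback inhibitors that interferon itself induces, were at 13.8 ± 1.09 and 16.9 ± 7.14 CPM and at 42.2 ± 8.39 and 49.4 ± 2.98 CPM, and did not pass. Of 12 further sensors, adaptors and kinases of nucleic acid sensing, Ikbke fell from 45.2 ± 12.2 to 24.3 ± 2.97 CPM (log2 fold change −0.89, adjusted p = 0.00573, and 0.0523 without CD8 beta+ replicate 1). The other 11, among them Mavs, Tmem173 (STING), Cgas, Tbk1 and Aim2, did not pass. The sensors Cgas, Aim2, Tlr3, Tlr7 and Tlr9 had log2 fold changes of 0.27, 0.17, 1.96, 0.24 and −0.12, with the Tlr genes low in both groups. Without CD8 beta+ replicate 3, Traf3 passed as lower (adjusted p = 0.00752) and Tlr3 as higher (0.0128).

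**Figure D4:**
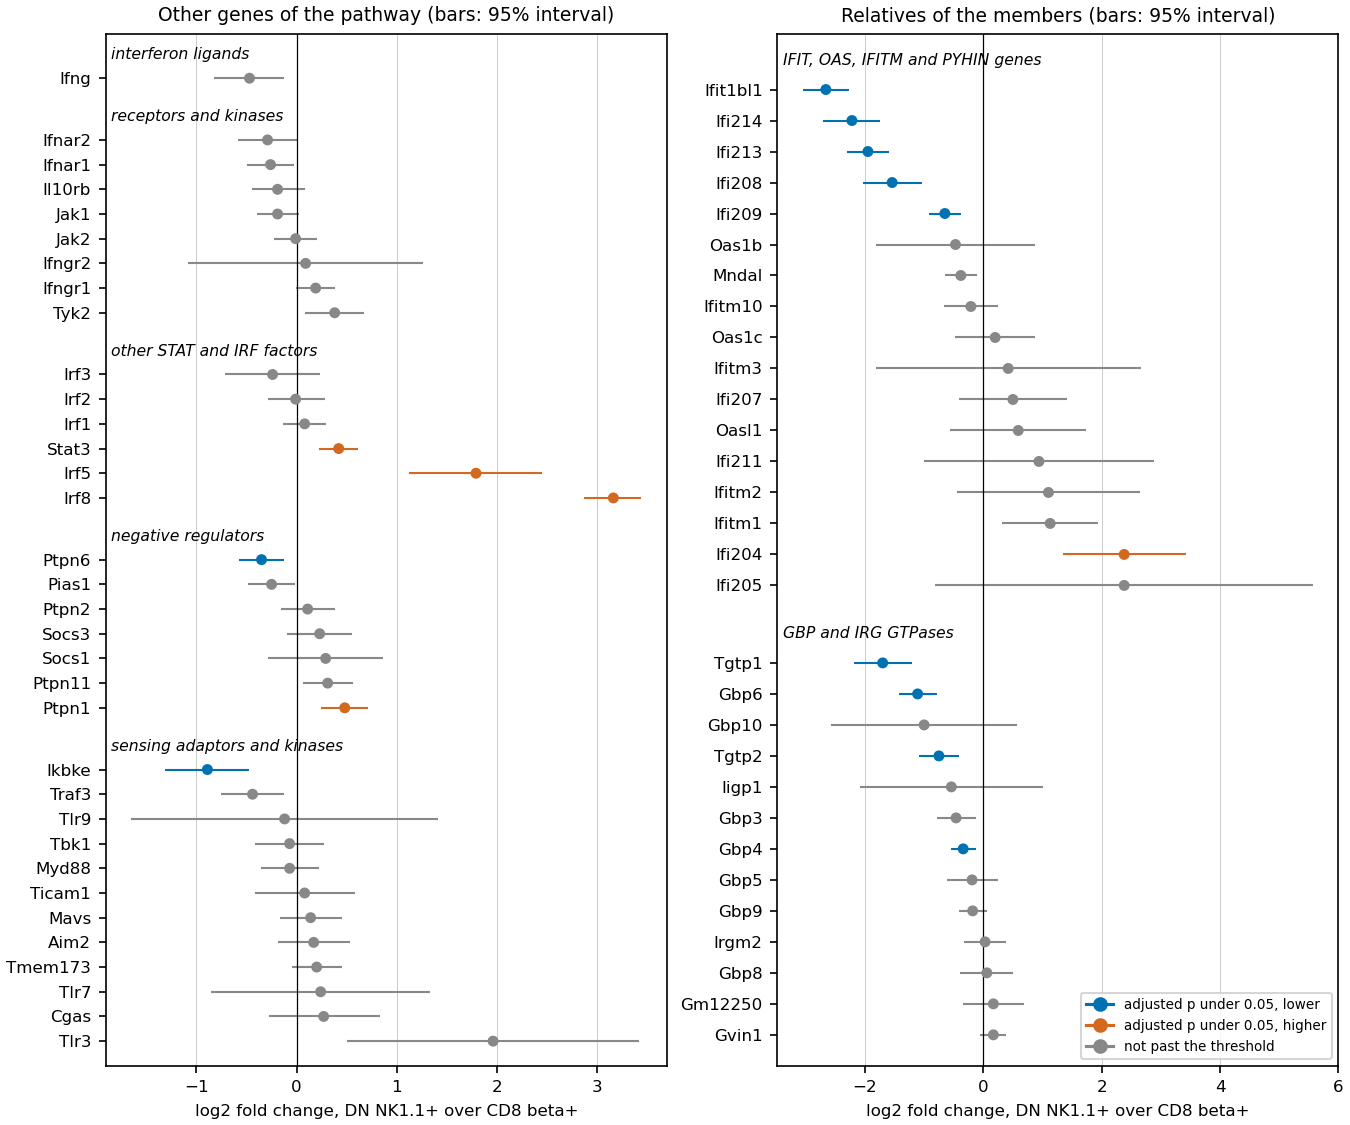
Fitted log2 fold change, DN NK1.1+ over CD8 beta+, with 95% interval, of the tested pathway genes (left, 34 genes) and of the tested relatives (right, 30 genes). Coloured points passed the test. Irf8 (3.16) and Irf5 (1.79) lie furthest right of the coloured points on the left panel, and Ifit1bl1 (−2.66) and Ifi204 (2.38) mark the ends of the called range on the right panel.

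Markers of cell types differed between the groups along with these genes. The summed level of 6 T cell markers was 2702 to 2883 CPM in CD8 beta+ and 1514 to 1687 CPM in DN NK1.1+ libraries, with 5 of 6 lower. By mean, Cd3e was the highest in CD8 beta+ and Cd3g in DN NK1.1+ libraries. That of 5 NK markers was 52.4 to 71.1 CPM against 1435 to 1565 CPM, with all 5 higher. Plasmacytoid dendritic cells, strong interferon producers, left little trace. The 8 markers of these cells summed to 30.9 to 33.3 and 27.8 to 39.0 CPM, with Siglech at 0.959 ± 0.949 and 1.66 ± 1.33 CPM and Klk1 at 0. The list includes Bst2, and of the 6 tested 1 was higher (Tcf4) and 2 were lower (Bst2 and Ccr9).

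The 13 myeloid markers summed to 637 to 771 and 808 to 1207 CPM, with Cd74 and Itgax among the highest, and 2 were higher (Itgax and Csf1r). The neutrophil markers stayed between 1.67 and 10.7 CPM in sum, with 0 of 2 tested called, also at an unadjusted p under 0.05. The B cell markers summed to 187 to 337 and 326 to 525 CPM, with 1 higher (Ighm) and 1 lower (Cd79b) of 6. Luminal epithelial markers, led by the milk protein gene Csn2, ranged from 492 to 777 and from 271 to 1569 CPM. Of 7 tested, 1 was higher (Epcam), or 14.3%, where 13.8% of all genes were called. Epcam was at 30.7, 32.7 and 32.2 CPM in DN NK1.1+ libraries 1, 2 and 3. Csn2 was at 139, 397 and 911 CPM there and did not pass. Replicate 3 of each group stood apart in the markers of supporting tissue. The basal markers summed to 100.5 and 116 CPM in replicate 3 of the 2 groups and to 6.62 to 13.0 CPM in the other 4 libraries. The endothelial and fibroblast markers were likewise highest in both replicates 3, at 184 and 210.4 CPM, with 1 of 7 higher (Pecam1). Without both of these libraries, 21 of the 40 genes were lower, 18 of them among the 22. The part of other cell types in these differences was not tested.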

How the data were processed

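The authors deposited 1 table of expected counts per gene for 6 libraries. The unit was inferred from the values, of which 8.43% are not whole, with at most 2 decimals. The 2 identifier headings are swapped, and all 55450 identifiers matched GENCODE M21. The submitters' processing notes list mm10 and Cell Ranger 7.1.0, a single-cell tool. The aligner, counter, annotation and use of strand are, for these libraries, not given in the sources used here. Single-cell data were not analysed here.

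Counts were rounded and tested with edgeR 4.0.16 in R 4.3.3 (quasi-likelihood, robust, TMM, group as the only term), on genes kept by edgeR's filter (count at least 10, total at least 15). Adjusted p-values are Benjamini-Hochberg over all 13171 genes tested, with a threshold of 0.05. CPM use TMM-scaled library sizes (factors 0.9653 to 1.031). SE come from the F statistic. DESeq2 1.42.0, limma 3.58.1 (voom), other scalings, filters and omitted libraries were alternatives. The fit was tested on simulated data. The 40 genes and all lists were chosen with earlier results of these data known. All 40 are named. Of the pathway and relatives lists, called genes and the most abundant others are named, and further ones were chosen after their values were seen. A gene of the pathway is not reported here.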

Additional observations from a re-analysis of the deposited data

How the results depend on the processing

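Under 16 alternatives, 15 of the 22 genes that fell passed in every one, and the count of the 40 that fell ranged from 17 (without DN NK1.1+ replicate 2) to 25 (DESeq2, and no filter on low counts), with 0 higher in each. The 7 others were Mx1, Irgm1, Dhx58, Bst2, Trim25, Xaf1 and Ifih1, the last lost only without replicate 3 of both groups (log2 fold change −0.56, adjusted p = 0.0577). That alternative was added after the data had been seen. Of the 18 not called, 5 passed in at least 1 alternative: Ifit3b in 8, Oasl2 and Gbp7 in 4 each, Ifi35 in 2 and Usp18 in 1.

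Leaving out 1 library gave 17 to 21 of the 40 lower. The median of the 40 ranged from −0.715 to −0.57 over all alternatives, and that of all genes from −0.032 to 0.045. Over all genes, leaving out 1 library gave 681 (without CD8 beta+ replicate 1) to 1093 higher, against 1033, and 499 (again without that library) to 883 lower, against 789. Of the pathway genes 2 were lower, but 4 with upper quartile scaling or without the filter on low counts, 1 with library size only or a fit that was not robust, and 0 (without CD8 beta+ replicate 1) to 3 with 1 library left out. It was 1 without CD8 beta+ replicate 2 or DN NK1.1+ replicate 1 or 3. There were 7 higher, against 4, without replicate 3 of both groups. The causes were not tested. The fold changes of Ifi44, Rsad2 and Ddx58, none of them called, changed sign under some alternatives. Depth limited Ifit3b, Ifi44, Mx2 and Oas2, which did not pass a minimum count of 30.

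Replicate numbers were not taken to pair the libraries, since the labels name no pairing. Same-numbered deviations correlated at −0.05, 0.189 and 0.256. Replicates 2 and 3 each correlated best with the library of the same number, and CD8 beta+ replicate 2 with DN NK1.1+ replicate 3 gave −0.254. CD8 beta+ replicate 1 correlated best with DN NK1.1+ replicate 2 (0.106). Whether same-numbered libraries share mice is not stated and was not tested. With the replicate as a block, 22 of the 40 were lower (21 shared, Ifit3b gained and Mx1 lost), and over all genes 1137 were higher and 945 lower.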
